A study of Mus musculus with 16 samples.

Results

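Tnip3 encodes ABIN-3, a protein named as an A20-binding inhibitor of NF-kappaB. The gene is described here with its relatives Tnip1 and Tnfaip3 and the inhibitor genes Nfkbia, Nfkbib and Nfkbie. The subunit genes Nfkb1, Nfkb2, Rel and Rela complete the list. Of these 10 genes, 9 had a row of their own among the 19937 gene symbols that stood alone on a row of the array table, and each of the 9 had 1 such row. Nfkb1 is named only. Tnip3 was chosen by the measured rise of its level after irradiation in these arrays, so its radiation responses are given as a description with no test. The other genes were listed with it because of what their proteins do in the same pathway, with earlier results of these data known.

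The study used 16 Affymetrix Mouse Gene 1.0 ST arrays for mRNA levels, each with RNA of 1 pool of at least 3 C57BL/6J mice. The cells were sorted from the bone marrow of wild-type (WT) animals and of Parp-2-/- animals, which lack PARP-2, an enzyme that senses DNA breaks. LSK cells are lineage-negative, Sca1-positive and c-Kit-positive and hold the blood stem cells and earliest progenitors, whereas myeloid progenitors (MP) are lineage-negative, Sca1-negative and c-Kit-positive. The 8 groups were unirradiated WT LSK, irradiated WT LSK, unirradiated Parp-2-/- LSK, irradiated Parp-2-/- LSK and the same 4 of MP cells, with irradiated cells taken 2.5 hours after 5 Gy of gamma radiation and with n = 2 pools in each group. The age and sex of the mice are not stated in the labels. Because each sample was a pool of mice, the p-values measure only the spread between pools. A lower level of an mRNA in a sorted population can come from fewer cells that carry it or from less of it per cell, and these cannot be told apart here.

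NF-kappaB is a family of dimeric transcription factors (RelA, c-Rel, RelB, p50 made from Nfkb1 and p52 made from Nfkb2) that turn on genes of inflammation and cell survival. In resting cells the dimers are held in the cytoplasm by IkappaB proteins, which are destroyed after a receptor signal or, by a slower nuclear route, after DNA breaks. A20, encoded by Tnfaip3, and the A20-binding inhibitor ABIN-1, encoded by Tnip1, dampen the ubiquitin signals upstream of this step. ABIN-3, encoded by Tnip3, is named as a further A20-binding inhibitor. Whether mouse ABIN-3 inhibits NF-kappaB in these cells was not measured. Several of the inhibitor and subunit genes are themselves known targets of NF-kappaB, which makes the pathway limit itself.

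Promoter sequences are shown for 4 members, because Tnip3, Tnip1 and Nfkb2 were the members whose irradiated pools read above the unirradiated pools in every setting, and Nfkbib was the member called in a single setting. They are RefSeq promoters of assembly GRCm38.p6, from 250 bases before to 50 bases after the start of transcription, written 5′ to 3′ on the gene's strand. For Nfkb2, the first of 3 listed starts is shown. Capitals mark matches to the kappaB consensus (GGG, a purine, any base, A or T, 2 pyrimidines, CC) on either strand.
Tnip3, chr6:65590148-65590447, plus strand: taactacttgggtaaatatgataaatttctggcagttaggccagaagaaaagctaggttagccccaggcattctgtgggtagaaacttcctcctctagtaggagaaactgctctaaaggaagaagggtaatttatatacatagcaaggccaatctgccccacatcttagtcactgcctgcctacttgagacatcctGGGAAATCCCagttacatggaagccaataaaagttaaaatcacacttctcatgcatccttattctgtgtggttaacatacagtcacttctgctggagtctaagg
Tnip1, chr11:54962891-54963190, minus strand: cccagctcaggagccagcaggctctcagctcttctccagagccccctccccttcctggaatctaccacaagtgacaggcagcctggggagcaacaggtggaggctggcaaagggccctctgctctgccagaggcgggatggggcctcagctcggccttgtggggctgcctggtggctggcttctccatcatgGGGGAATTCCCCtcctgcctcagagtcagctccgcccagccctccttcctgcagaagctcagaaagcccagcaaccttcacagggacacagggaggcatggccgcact
Nfkb2, chr19:46304487-46304786, plus strand: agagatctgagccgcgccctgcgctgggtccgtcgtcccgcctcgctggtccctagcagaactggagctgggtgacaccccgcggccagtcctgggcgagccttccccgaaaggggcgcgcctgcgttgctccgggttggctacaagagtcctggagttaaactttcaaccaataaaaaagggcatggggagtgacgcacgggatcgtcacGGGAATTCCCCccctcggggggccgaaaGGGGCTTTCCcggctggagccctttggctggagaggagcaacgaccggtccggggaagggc
Nfkbib, chr7:28766595-28766894, minus strand: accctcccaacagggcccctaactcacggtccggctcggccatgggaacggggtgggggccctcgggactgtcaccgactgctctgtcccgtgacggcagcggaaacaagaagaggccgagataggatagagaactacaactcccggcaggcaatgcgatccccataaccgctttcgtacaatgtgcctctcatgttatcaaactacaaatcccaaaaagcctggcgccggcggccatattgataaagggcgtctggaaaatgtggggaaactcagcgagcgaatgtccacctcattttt
The match GGGAAATCCC of Tnip3 began 54 bases before the start. Tnip1 had 3 overlapping matches that began 56 to 58 bases before the start and together read GGGGAATTCCCC. Nfkb2 had the overlapping matches GGGAATTCCC and GGAATTCCCC, which began 39 and 38 bases before this start, and the match GGGGCTTTCC 11 bases before it. The Nfkbib promoter held no match, and nor did that of Rela.

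Of the 9 members with a listed promoter, 7 held the kappaB consensus in at least 1 promoter. Of their 12 promoters 9 held it, against 4.51% of all 32851 promoters of the same length. The 12 are not all separate sequences, because promoters 2 and 3 of Nfkb2 overlap and share the match GGGACTTTCC. A looser pattern, GGG and CC with any 5 bases between them, which every match to the consensus also fits, stood in 11 of the 12 member promoters and in 50.8% of all promoters. The p53 half-site consensus, which 8.36% of all promoters held, was in 0 of the 12. Both strands were searched in every case, and a match is a match of letters only.

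The arrays were alike in their medians, which lay between 4.75 and 4.92 log2 units. Rows that read below their array's median may be background, so a difference from a group that lies wholly below it is a lower bound. Parp2 itself read lower in Parp-2-/- than in WT cells, by 1.42 ± 0.18 log2 units (± SE) in LSK and 1.44 ± 0.18 in MP cells (limma adjusted p = 0.042 and 0.025), and within each cell type no Parp-2-/- array reached the level of a WT array. Its row still read above the median on every Parp-2-/- array, at 5.70 to 6.77 in LSK and 6.74 to 7.11 in MP cells. The calls for Parp2 were lost in some fits, in LSK cells with the 8 arrays alone (adjusted p = 0.47), with all rows tested (0.059) or in 7 of 16 fits that left out 1 array (up to 0.081). In MP cells they were lost with all rows tested (0.12) and in 12 of 16 (up to 0.24), while the difference stayed between −1.24 and −1.60 in LSK and between −1.34 and −1.55 in MP cells. In unirradiated cells, 6 measured genes of the LSK sort and stem cell list averaged 8.72 to 8.86 on LSK arrays and 6.93 to 7.48 on MP arrays, and 9 myeloid progenitor genes averaged 6.50 to 6.74 and 8.86 to 9.16. In irradiated cells the first list averaged 8.32 to 8.58 on LSK and 6.92 to 7.30 on MP arrays, and the second 6.75 to 7.08 and 8.67 to 8.82. So after irradiation LSK arrays read lower on the first list and higher on the second, and MP arrays lower on the second, each without overlap, and the part of this in the responses below was not tested. Ly6a, which encodes the Sca1 of the sort, was not matched to a row of its own. Lists of T and NK cell, mature neutrophil and B lymphocyte genes averaged at most 4.54, 4.95 and 4.95 on any array. Dendritic cell genes averaged at most 4.86, the 3 measured of 7 erythroid genes at most 4.87, and mast cell and basophil genes 4.69 to 5.33 in LSK and 5.20 to 5.79 in MP cells. The 9 monocyte and macrophage genes averaged 4.77 to 5.06 in unirradiated LSK, 4.65 to 4.86 in irradiated LSK, 4.92 to 5.28 in unirradiated MP and 4.93 to 5.25 in irradiated MP cells.

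After irradiation, Tnip3 was the row with the largest rise of 22961 tested in both genotypes of LSK cells. By size of rise it ranked 2 in WT MP and 6 in Parp-2-/- MP cells. In WT LSK cells it read 5.23 and 5.90 in the unirradiated pools and 9.69 and 10.25 in the irradiated pools, a difference of 4.41 ± 0.41 log2 units or 21.2-fold. In Parp-2-/- LSK cells it read 4.84 and 5.64 before and 9.97 and 10.16 after irradiation, a difference of 4.82 ± 0.41 or 28.3-fold. The lower of the unirradiated Parp-2-/- LSK pools was just below its array median. Irradiated and unirradiated pools were thus far apart in both genotypes, and the irradiated pools of the genotypes overlapped.

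MP cells showed the same direction from lower levels. Tnip3 read 4.21 and 4.28 in unirradiated and 8.45 and 8.70 in irradiated WT MP cells, a difference of 4.33 ± 0.41 or 20.1-fold. Both unirradiated WT MP arrays were below their array medians, so this size is a lower bound. In Parp-2-/- MP cells the unirradiated pools read 5.24 and 3.83 and the irradiated pools 8.24 and 7.68, a difference of 3.43 ± 0.41 or 10.8-fold. The unirradiated Parp-2-/- MP pools differed from each other by 1.42 log2 units, and 1 of them was below its array median. The mean of the 4 responses was 4.25 ± 0.21 or 19.0-fold. The limit set by the unirradiated WT MP arrays makes this mean a lower bound too. In the LSK minus MP difference and the MP genotype difference between responses given below, the WT MP response is subtracted. There the same limit can only make the value too high. The LSK genotype difference does not hold the WT MP response.

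**Figure D1:**
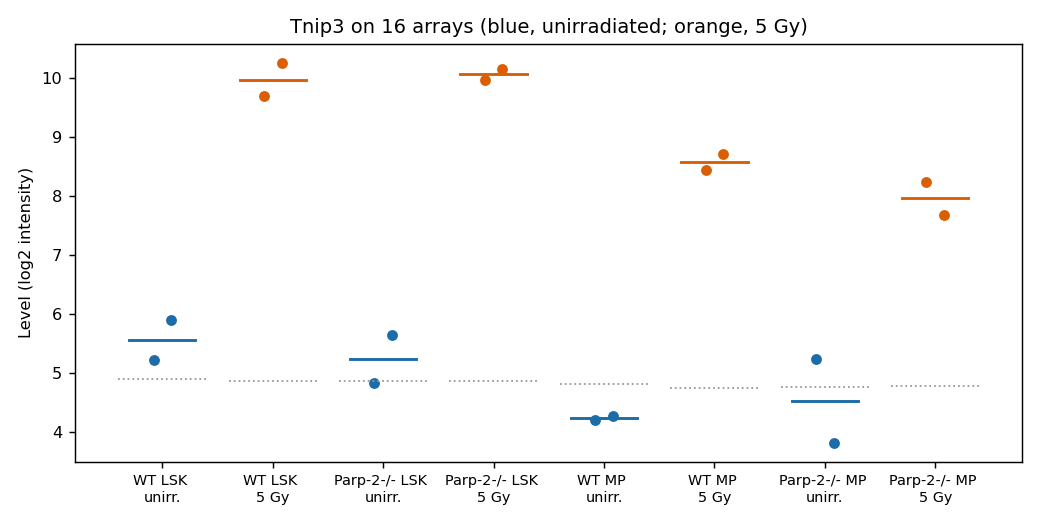
Level of Tnip3 in log2 intensity (vertical axis) in the 8 groups (horizontal axis), with points for the 2 pools of a group, a solid bar for their mean and a dotted line for the mean array median. Irradiated pools (orange) sit between 7.68 and 10.25 and unirradiated pools (blue) between 3.83 and 5.90.

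In the order of the group means, irradiated Parp-2-/- LSK cells came first with 10.06 ± 0.13 (SD, n = 2), followed by irradiated WT LSK cells with 9.97 ± 0.40, whose pools lay on both sides of them. Next came irradiated WT MP cells with 8.58 ± 0.18 and irradiated Parp-2-/- MP cells with 7.96 ± 0.40, whose pools did not overlap. Unirradiated WT LSK cells followed with 5.56 ± 0.48, then Parp-2-/- LSK with 5.24 ± 0.57, Parp-2-/- MP with 4.53 ± 1.002 and WT MP with 4.25 ± 0.05. Among these last 4 groups, the pools of each overlapped those of its neighbour in the order, while all pools of both LSK groups lay above both WT MP pools.

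Tnip3 was higher in LSK than in MP cells, averaged over the genotypes. Tnip3 was chosen by its rise in these same arrays, so its p-values here and below are not independent of that choice. The difference was 1.75 ± 0.29 log2 units in irradiated cells (limma adjusted p = 0.0033), where the 4 LSK pools (9.69 to 10.25) lay above the 4 MP pools (7.68 to 8.70). In unirradiated cells it was 1.01 ± 0.29 (adjusted p = 0.036), with LSK pools at 4.84 to 5.90 and MP pools at 3.83 to 5.24 that overlapped. Of these 4 MP arrays 3 read below their medians, so the size may be a lower bound. The second call was lost with the 8 unirradiated arrays fitted alone (adjusted p = 0.087), after a further quantile normalization (0.065) and with all rows tested (0.074). It was also lost in 7 of 16 fits that left out 1 array: either unirradiated WT MP pool (0.11 and 0.078), either irradiated WT MP pool (0.052 each), and pool 2 of unirradiated Parp-2-/- MP (0.13), Parp-2-/- LSK (0.11) or WT LSK (0.12). The response to irradiation was 0.74 ± 0.41 larger in LSK than in MP cells (95% interval −0.16 to 1.63), which did not pass the test (adjusted p = 0.87).

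Between the genotypes, no difference in Tnip3 passed the test. Averaged over the irradiation states, the Parp-2-/- minus WT difference was −0.12 ± 0.29 in LSK (adjusted p = 0.93) and −0.16 ± 0.29 in MP cells (adjusted p = 1). The response of Parp-2-/- cells minus that of WT cells was 0.41 ± 0.58 in LSK cells (95% interval −0.85 to 1.68, adjusted p = 0.87) and −0.90 ± 0.58 in MP cells (−2.17 to 0.37, adjusted p = 1). With 2 pools in a group, these intervals still hold differences of over 1 log2 unit in either cell type.

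Tnip1, which encodes ABIN-1, read higher in the irradiated pools than in the unirradiated pools of every setting, by far smaller amounts. It went from 6.35 and 5.75 to 6.57 and 6.60 in WT LSK cells and from 6.71 and 5.42 to 6.74 and 6.97 in Parp-2-/- LSK cells. In MP cells it went from 5.93 and 5.71 to 6.31 and 6.64 in WT and from 6.09 and 5.62 to 6.46 and 6.43 in Parp-2-/- cells. No irradiated pool overlapped the unirradiated pools of its own group pair, although in Parp-2-/- LSK cells the gap was only 6.71 against 6.74.

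The separate differences for Tnip1 were 0.54, 0.79, 0.66 and 0.59 (each ± 0.34) in WT LSK, Parp-2-/- LSK, WT MP and Parp-2-/- MP cells, and none passed alone (limma adjusted p = 0.5, 0.37, 0.89 and 1). Their mean rose by 0.64 ± 0.17 (adjusted p = 0.044). That call was close to the threshold: it was lost with all rows tested (adjusted p = 0.094) and in 13 of 16 fits that left out 1 array (0.051 to 0.11). It held without pool 1 (0.002) or pool 2 (0.035) of unirradiated Parp-2-/- LSK or without pool 1 of unirradiated WT LSK (0.032). Without pool 1 of unirradiated Parp-2-/- LSK, which read 6.71 against 5.42 in pool 2, the difference in Parp-2-/- LSK cells was 1.44 (adjusted p = 0.035), and without pool 2 it was 0.15 (adjusted p = 0.91).

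Tnfaip3, which encodes A20, did not follow Tnip1 and Tnip3. In MP cells its irradiated pools read below the unirradiated pools: 7.68 and 6.85 against 6.15 and 5.93 in WT, and 7.86 and 6.61 against 5.79 and 5.81 in Parp-2-/- cells. These differences of −1.22 ± 0.43 and −1.44 ± 0.43 did not pass the test (limma adjusted p = 0.48 and 0.34). In LSK cells irradiated and unirradiated pools overlapped, with 6.62 and 6.51 against 5.76 and 6.63 in WT and 6.73 and 5.90 against 6.31 and 6.99 in Parp-2-/- cells (differences of −0.37 ± 0.43 and 0.33 ± 0.43, adjusted p = 0.76 and 0.87). The LSK response minus the MP response was 1.31 ± 0.43 (95% interval 0.38 to 2.25, unadjusted p = 0.00975 and adjusted p = 0.5 from limma). The mean of the 4 responses, −0.67 ± 0.22, had an adjusted p of 0.1, and it passed without pool 2 of unirradiated Parp-2-/- MP (−0.83, adjusted p = 0.033) and was −0.52 without pool 1 (adjusted p = 0.22).

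The unirradiated MP pools differed among themselves in several members at once. In Parp-2-/- MP cells, pool 1 read above pool 2 by 1.42 in Tnip3, 1.26 in Tnfaip3, 1.30 in Nfkbia and 0.79 in Nfkbie, and it was the higher pool for 7 of 9 members, where 53.6% of all rows were higher in pool 1. In WT MP cells, pool 1 exceeded pool 2 by 0.83 in Tnfaip3, 0.59 in Nfkbia and 1.26 in Rel, again with 7 of 9 members higher, where 47.1% of all rows were. Ccl3, a chemokine gene of the target list described later, ran the same way, with 9.38 and 8.10 in the WT and 8.85 and 7.06 in the Parp-2-/- pools. Monocyte and macrophage genes differed between the same pools, Cd14 with 5.40 and 4.39 in the WT and 5.38 and 4.27 in the Parp-2-/- pools, and Csf1r with 6.51 and 6.02 and with 6.20 and 5.61. Of that list 9 of 9 genes in WT and 5 of 9 in Parp-2-/- MP cells were higher in pool 1, with list means of 5.28 and 4.92 in WT and 5.11 and 4.94 in Parp-2-/- pools. Its macrophage gene Adgre1 read 3.48 to 4.03 in these 4 pools, under the array medians. In unirradiated Parp-2-/- LSK cells pool 1 read above pool 2 by 1.29 in Tnip1, 0.89 in Nfkbia, 0.83 in Tnfaip3 and 0.80 in Rel. Pool 1 was higher there for 7 of 9 members, where 54.0% of all rows were, but Tnip3 and Nfkbie ran the other way (−0.805 and −0.304). The monocyte and macrophage list also ran the other way, with 3 of 9 genes higher in pool 1 and means of 4.845 and 5.056. In irradiated cells pool 1 was the lower pool for 7 of 9 members in WT LSK, 8 of 9 in Parp-2-/- LSK and 7 of 9 in WT MP cells. Of all rows, 54.4%, 51.4% and 50.3% were higher in pool 1 in these groups. In irradiated Parp-2-/- MP and unirradiated WT LSK cells pool 1 was higher for 5 of 9 members (45.4% and 47.0% of all rows). The part of these pool differences, and of the marker genes that moved with them in unirradiated MP cells, in the responses of Tnip3, Tnfaip3, Nfkbia and Rel was not tested.

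**Figure D2:**
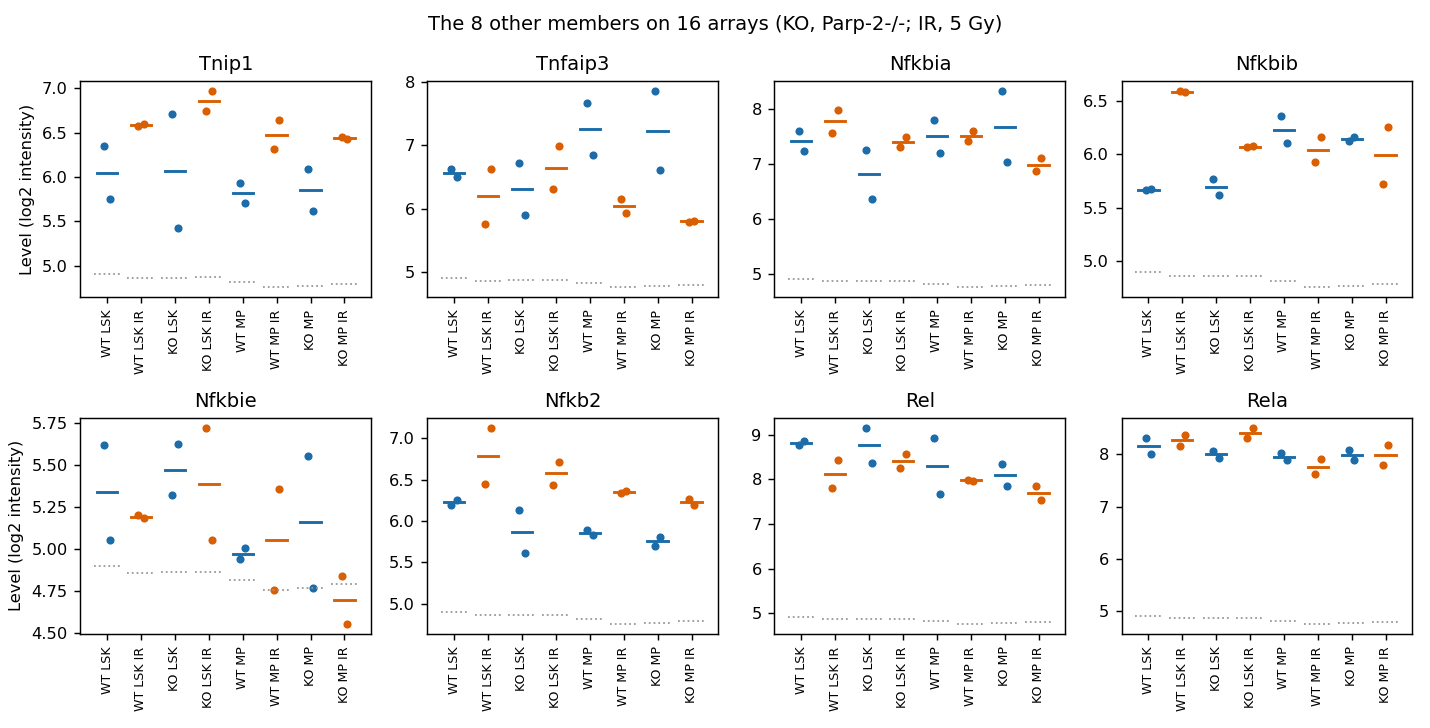
Levels in log2 intensity (vertical axes) of the other 8 members in the 8 groups (horizontal axes), with points for the 2 pools, bars for their means and dotted lines for the mean array medians. Tnip1 and Nfkb2 step up from blue (unirradiated) to orange (irradiated) in all 4 pairs of groups, and Tnfaip3 steps down in the 2 MP pairs.

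Among the classical IkappaB genes, Nfkbib, which encodes IkappaB-beta, rose in WT LSK cells. It read 5.66 and 5.68 in the unirradiated and 6.60 and 6.58 in the irradiated pools, a rise of 0.92 ± 0.18 (limma adjusted p = 0.024). This was the 1 call among the other 8 members in WT LSK cells, where 1.8% of all tested rows were called in either direction and 1.18% were called higher. The call was lost with the 8 LSK arrays fitted alone (adjusted p = 0.13), with all rows tested (0.051) and without any 1 of the 4 WT LSK arrays (0.057 to 0.083). In Parp-2-/- LSK cells the pools read 5.77 and 5.62 before and 6.07 and 6.08 after irradiation, a difference of 0.38 ± 0.18 that did not pass (adjusted p = 0.44). Irradiated pools thus read above unirradiated pools in both genotypes of LSK cells, but the share of all rows with this pattern was not counted. The Parp-2-/- response minus the WT response in LSK cells was −0.54 ± 0.25 (95% interval −1.09 to 0.01, adjusted p = 0.53).

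In MP cells Nfkbib read 6.36 and 6.10 before and 5.93 and 6.16 after irradiation in WT, and 6.13 and 6.17 before and 5.72 and 6.26 after in Parp-2-/- cells. Those pools overlapped, with differences of −0.19 ± 0.18 and −0.16 ± 0.18 (adjusted p = 1 in both). Before irradiation Nfkbib was lower in LSK than in MP cells, by a difference of −0.51 ± 0.13 (limma adjusted p = 0.019), with all 4 LSK pools (5.62 to 5.77) below all 4 MP pools (6.10 to 6.36). That call was lost in 4 of 16 fits that left out 1 array: pool 1 (adjusted p = 0.054) or pool 2 (0.067) of unirradiated Parp-2-/- MP, pool 1 of unirradiated WT MP (0.083) or pool 2 of unirradiated Parp-2-/- LSK (0.054). After irradiation the difference was 0.31 ± 0.13 in the other direction and did not pass (adjusted p = 0.1). The response in LSK minus that in MP cells, 0.82 ± 0.18 (95% interval 0.43 to 1.21), had an unadjusted p of 0.000581 in limma and did not pass after adjustment over all rows (adjusted p = 0.23).

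Nfkbia, which encodes IkappaB-alpha, the inhibitor that NF-kappaB itself is known to resupply, showed no difference that passed. Its pools ranged from 6.36 to 8.32, and the responses were 0.35, 0.59, 0.01 and −0.69 (each ± 0.38) in WT LSK, Parp-2-/- LSK, WT MP and Parp-2-/- MP cells (limma adjusted p = 0.74, 0.63, 1 and 1). Irradiated pools lay above unirradiated pools only in Parp-2-/- LSK cells, with 7.30 and 7.49 against 7.25 and 6.36. Nfkbie, which encodes IkappaB-epsilon, was near the array medians and above them on 14 of 16 arrays. Its pools ranged from 4.56 to 5.72, overlapped in all 4 settings and gave responses of −0.14, −0.08, 0.08 and −0.46 (each ± 0.30).

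Of the subunit genes, Nfkb2, which encodes the p100 precursor of p52, rose over the 4 settings together. It went from 6.19 and 6.26 to 6.45 and 7.13 in WT LSK cells and from 6.13 and 5.61 to 6.43 and 6.72 in Parp-2-/- LSK cells. In MP cells it went from 5.89 and 5.83 to 6.34 and 6.36 in WT and from 5.70 and 5.81 to 6.27 and 6.19 in Parp-2-/- cells. No irradiated pool overlapped the unirradiated pools of its setting. The differences were 0.56, 0.70, 0.49 and 0.48 (each ± 0.22, limma adjusted p = 0.25, 0.18, 0.78 and 0.87), none of which passed alone. Their mean was a rise of 0.56 ± 0.11 (adjusted p = 0.0094), which stayed called in every alternative tried (0.0018 to 0.03).

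Rel, which encodes c-Rel, the subunit best known from lymphocytes, had lower means after irradiation in each setting. In WT LSK cells it read 8.78 and 8.85 before and 7.80 and 8.44 after irradiation, and in Parp-2-/- MP cells 8.34 and 7.861 before and 7.857 and 7.55 after, without overlap in either. The other settings overlapped, with unirradiated pools of WT MP cells as far apart as 8.94 and 7.68. The responses of −0.69, −0.36, −0.33 and −0.40 (each ± 0.37) and their mean of −0.45 ± 0.19 did not pass (limma adjusted p = 0.23 for the mean). Without pool 2 of unirradiated WT MP the mean was −0.60 (adjusted p = 0.049), and without pool 1 it was −0.29 (adjusted p = 0.4).

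Rela, which encodes the main transactivating subunit, read between 7.61 and 8.51 on all arrays, and its responses were 0.12, 0.41, −0.20 and −0.01 (each ± 0.18), none of which passed. Irradiated pools lay above unirradiated pools in Parp-2-/- LSK cells only, with 8.31 and 8.51 against 8.07 and 7.92. After irradiation Rela was 0.47 ± 0.13 higher in LSK than in MP cells (limma adjusted p = 0.032), with LSK pools at 8.16 to 8.51 and MP pools at 7.61 to 8.17. That call was lost with the 8 irradiated arrays fitted alone (adjusted p = 0.071), with all rows tested (0.055) and in 5 of 16 fits that left out 1 array: pool 1 of irradiated Parp-2-/- MP (0.13), pool 1 (0.13) or pool 2 (0.052) of irradiated WT MP, pool 2 of irradiated Parp-2-/- LSK (0.07) or pool 2 of irradiated WT LSK (0.056). Before irradiation the difference was 0.10 ± 0.13 (adjusted p = 0.58).

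**Figure D3:**
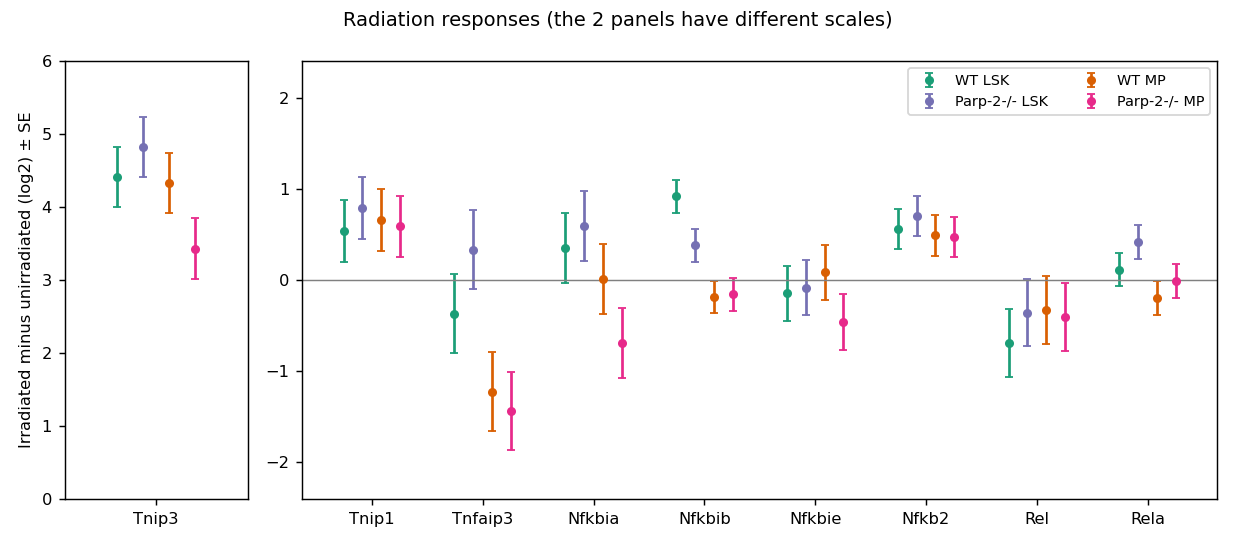
Irradiated minus unirradiated level in log2 units ± SE (vertical axes, with a different scale in each panel) for the 9 members (horizontal axis), with 1 colour for each of the 4 settings and n = 2 pools in a group. Tnip3 lies between 3.43 and 4.82, and all other responses lie between −1.44 and 0.92.

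The 8 members other than Tnip3 were counted against all tested rows. They were listed with earlier results of these data known. In Parp-2-/- LSK cells limma called 0 of 8 (background 1.47% of all tested rows), in WT MP cells 0 of 8 (0.671%) and in Parp-2-/- MP cells 0 of 8 (0.588%). At an unadjusted p under 0.05, 2, 3, 2 and 1 of the 8 passed in WT LSK, Parp-2-/- LSK, WT MP and Parp-2-/- MP cells, beside 14.7%, 11.8%, 6.24% and 5.75% of all tested rows. For the mean of the 4 responses 2 of 8 were called, Nfkb2 and Tnip1, both higher, where 5.8% of all tested rows were called and 3.31% were called higher, and 5 of 8 had an unadjusted p under 0.05, as had 17.2% of all tested rows. The median difference of the 8 members was 0.23, 0.40, −0.09 and −0.28 in WT LSK, Parp-2-/- LSK, WT MP and Parp-2-/- MP cells, beside −0.02, 0.00, −0.04 and −0.01 over all rows.

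Irradiated pools lay above unirradiated pools in all 4 settings for Tnip3, Tnip1 and Nfkb2, a pattern that 2.09% of all tested rows had. The opposite pattern, which 1.33% of rows had, was seen in 0 of the 9 members. Tnip3 was chosen for its rise, so its place in the first count is fixed by that choice. The share of all rows with pools apart in a single setting was not counted. Pools that lay apart in single settings are therefore given as descriptions only.

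Between cell types, the 9 members gave 2 calls in unirradiated cells, Tnip3 higher and Nfkbib lower in LSK, and 2 in irradiated cells, Tnip3 and Rela, both higher in LSK. Tnip3 was chosen by values used here, so its place in these counts is not independent of that choice. Of all tested rows, 14.9% were called in unirradiated cells (5.04% higher and 9.85% lower in LSK) and 14.9% in irradiated cells (5.66% higher in LSK). The member median was 0.22 in unirradiated and 0.41 in irradiated cells, beside 0.10 and 0.11 over all rows. A further quantile normalization brought the medians over all rows to 0.03 in each state, and it added Nfkb2 to the calls in irradiated cells (0.53, adjusted p = 0.048, against 0.39 ± 0.16 and adjusted p = 0.097 without it). Without pool 1 of irradiated WT LSK, Nfkb2 was likewise called (0.56, adjusted p = 0.029), and without pool 2 it differed by 0.22 (adjusted p = 0.24).

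Single pools also decided other differences between the cell types. Rel was 0.58 ± 0.26 higher in unirradiated LSK than MP cells without passing (limma adjusted p = 0.15), and 0.90 higher without pool 1 of unirradiated WT MP (adjusted p = 0.035) but 0.27 higher without pool 2 (0.42). Tnfaip3 differed by −0.81 ± 0.30 in the same comparison (adjusted p = 0.091), and by −1.12 without pool 2 of unirradiated Parp-2-/- MP (adjusted p = 0.039) but −0.50 without pool 1 (0.29). Nfkbib in irradiated cells differed by 0.45 without pool 2 of irradiated Parp-2-/- MP (adjusted p = 0.046) but by 0.18 without pool 1 (0.34).

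**Figure D4:**
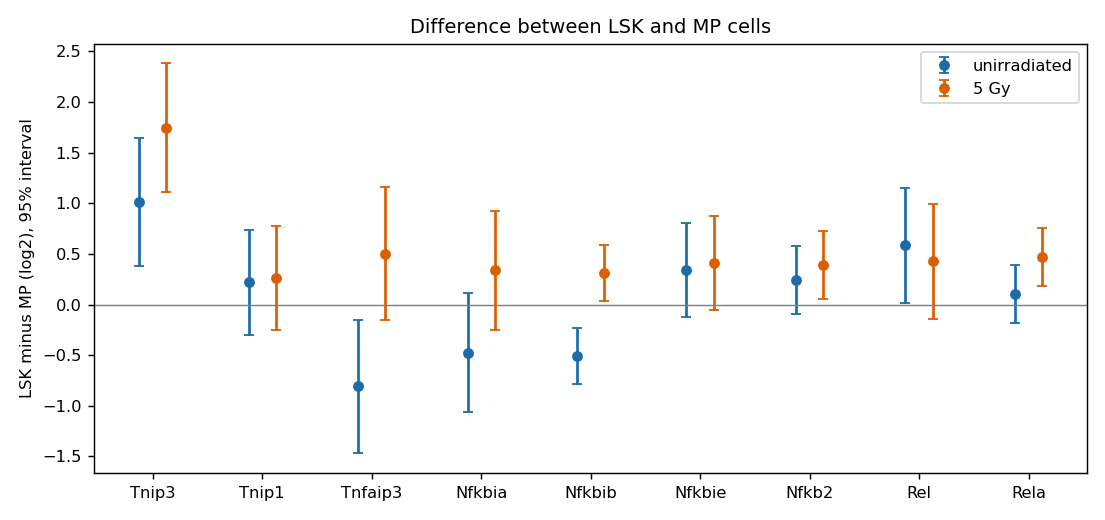
LSK minus MP level in log2 units with the 95% interval (vertical axis) for the 9 members (horizontal axis), unirradiated in blue and irradiated in orange, with 4 pools of each cell type in each state. Tnip3 is highest in both states (1.01 and 1.75), and Nfkbib goes from −0.51 to 0.31.

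Genotype gave 0 calls among the 9 members in limma. In LSK cells 0 of 9 were called and 0 of 9 had an unadjusted p under 0.05 (background 0.0479% of tested rows called and 9.15% at the unadjusted p), and in MP cells the same counts were 0 and 0 (background 0.0131% and 1.92%). The widest genotype difference was that of Nfkbia in LSK cells, −0.49 ± 0.27 (95% interval −1.08 to 0.10). For the difference between the genotypes in the radiation response, 0 of 9 were called and 0 of 9 had an unadjusted p under 0.05 in LSK (background 0.00871% and 9.52%) and in MP cells (background 0% and 0.867%). For the difference in response between LSK and MP cells 0 of 9 were called (background 0%), and Nfkbib and Tnfaip3 were the 2 members with an unadjusted p under 0.05, as had 6.55% of all tested rows.

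The genes whose group means ran most like those of Tnip3 were found by Pearson correlation over the 8 group means, among 3238 genes whose means spanned at least 1 log2 unit. Ptp4a3, which encodes a tyrosine phosphatase, was closest (r = 0.999), with responses of 1.47, 1.49, 1.43 and 1.10 (each ± 0.29) in WT LSK, Parp-2-/- LSK, WT MP and Parp-2-/- MP cells. It was followed by Zfp385a (r = 0.988), a zinc finger gene, Tex15 (0.985), Igkv5-43 (0.985), the cadherin gene Fat1 (0.985) and Adamts6 (0.983), a metalloprotease gene. The group means of Tex15 and Igkv5-43 lay at or below 4.25 and 3.25, under every array median, so their levels may be background, and Fat1 and Adamts6 read 4.12 to 4.65 and 3.79 to 4.81 in the unirradiated groups, under or near the medians. These values are correlations over 8 means that share arrays and the same irradiation contrast.

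Of the members, Tnip1 (r = 0.979) and Nfkb2 (r = 0.934) ran most like Tnip3 over the 8 group means. Rela (0.462), Nfkbib (0.412) and Nfkbia (0.169) followed, and r was −0.022 for Nfkbie, −0.37 for Rel and −0.619 for Tnfaip3. Of the compared genes, 99.8% had a lower r than Tnip1, 98.2% than Nfkb2, 82.9% than Rela and 81.2% than Nfkbib. For Nfkbia, Nfkbie, Rel and Tnfaip3 these shares were 71.9%, 61.5%, 34.4% and 15.3%. The group means of Rela, Nfkbib, Nfkbia and Nfkbie spanned only 0.65 to 0.96 log2 units, under the limit of 1 set for the compared genes.

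**Figure D5:**
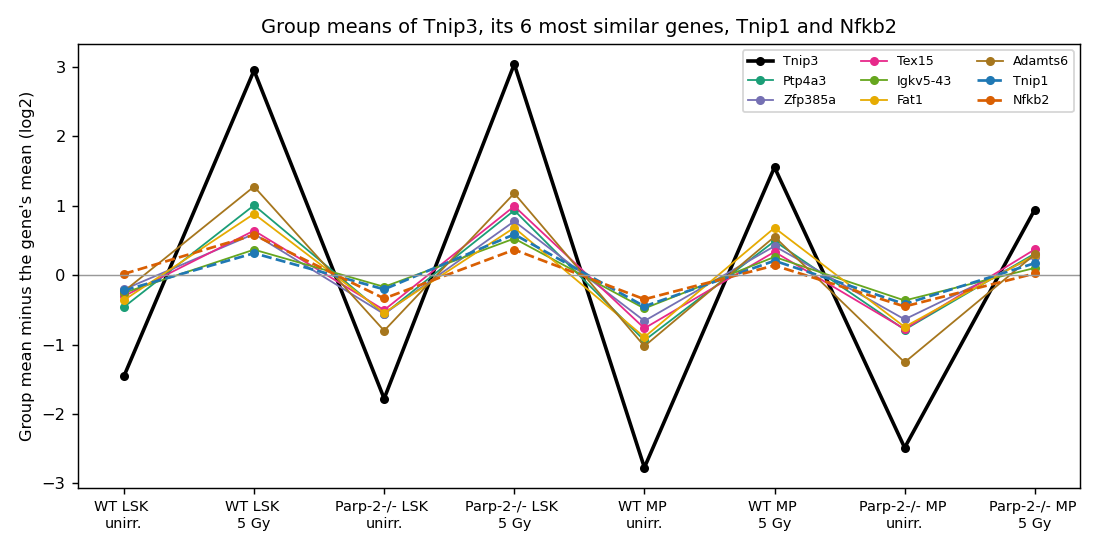
Group mean minus the gene's mean over the 8 groups in log2 units (vertical axis) for Tnip3 (black), its 6 most similar genes and the members Tnip1 and Nfkb2 (dashed) in the 8 groups (horizontal axis). All rise from each unirradiated group to its irradiated group, and the span of Tnip3 is far wider than the spans of the others, which for the 6 similar genes are 1.01 to 2.53 log2 units.

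The rest of the pathway was described from 5 lists with 108 genes in all, of which 98 had a row of their own. For the mean of the 4 responses, the list counts stand beside 3.31% of all tested rows called higher and 2.49% called lower. On the route by which DNA breaks reach NF-kappaB, 10 of 13 genes were measured, and 1 of 10 was called, Pidd1, which rose in all 4 settings. Pidd1, a p53-induced gene whose protein binds NEMO and RIP1 in the nucleus, rose by 1.27, 1.05, 1.47 and 1.51 (each ± 0.22) in WT LSK, Parp-2-/- LSK, WT MP and Parp-2-/- MP cells (limma adjusted p = 0.013, 0.036, 0.0076 and 0.0066). Each of these 4 calls was lost in some of the 16 fits that left out 1 array. Over these fits and the other alternatives the differences lay at 1.08 to 1.45, 0.80 to 1.29, 1.24 to 1.705 and 1.44 to 1.57. With the 8 LSK arrays alone both LSK calls were lost (limma adjusted p = 0.13 and 0.22). The Parp-2-/- LSK call was also lost with an intensity trend and robust moderation (0.057) and with all rows tested (0.084). The mean response of Pidd1, 1.32 ± 0.11 (adjusted p = 1.1e-05), stayed called throughout. Its unirradiated pools read 5.49 to 6.27 and its irradiated pools 6.91 to 7.55, with no overlap. The list's median for the mean response was −0.01, beside −0.02 over all rows.

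The list of other brakes and atypical IkappaB genes held 17 genes, with the subunit gene Relb among them. In the mean of the 4 responses 3 of the 17 rose and 1 fell (limma, adjusted p under 0.05). Cyld, a deubiquitinase that removes the same kind of ubiquitin chain as A20 acts on, rose by 0.73 ± 0.09 (adjusted p = 0.00044). Bcl3, an atypical IkappaB protein that works in the nucleus, rose by 0.60 ± 0.14 (adjusted p = 0.027), and Relb, a subunit that pairs with p52, was higher by 0.43 ± 0.12 (adjusted p = 0.047). Nfkbid, an atypical nuclear IkappaB gene, fell by 0.40 ± 0.08 on the log2 scale (adjusted p = 0.0095). Tnip2, the remaining A20-binding inhibitor, differed by 0.27 ± 0.11 and did not pass (adjusted p = 0.2). The call of Bcl3 was lost with all rows tested and in 8 of 16 fits that left out 1 array (adjusted p up to 0.072), and that of Relb with the replicate block (0.052), with all rows tested (0.092) and in 14 of 16 (up to 0.12). Bcl3 read above the array median on 4 of 8 unirradiated arrays and Relb on 3 of 8, so their sizes may be lower bounds, and Nfkbid did so on 6 of 8 irradiated arrays. The list median was −0.15, beside −0.02 over all rows.

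Of the receptors, ligands, adaptors and kinases, 2 rose and 2 fell. Of 24 measured adaptors, ubiquitin ligases and kinases, Ikbke, an IkappaB kinase relative, rose by 1.02 ± 0.20 in the mean response (limma adjusted p = 0.0079), and Malt1, a paracaspase of antigen receptor signalling, fell by 0.46 ± 0.12 (adjusted p = 0.044). Of 18 receptors and ligands, Tnfrsf1b, a TNF receptor gene, rose by 0.47 ± 0.11 (adjusted p = 0.025), and Tnfrsf13c, which encodes the BAFF receptor, fell by 0.54 ± 0.11 (adjusted p = 0.0082). The calls of Malt1 and Tnfrsf1b were lost in 12 and 7 of 16 fits that left out 1 array (adjusted p up to 0.12 and 0.074). With all rows tested both were lost too (0.088 and 0.056), and Malt1 also with an intensity trend and robust moderation (0.06), while those of Ikbke and Tnfrsf13c held in all of these fits. The medians of these lists were 0.03 and −0.06.

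Known target genes of NF-kappaB moved in both directions. In the mean of the 4 responses 4 of 34 were called higher and 5 lower, beside 3.31% and 2.49% of all tested rows, with a list median of −0.01. The chemokine gene Cxcl10 rose by 2.06 ± 0.28 (limma adjusted p = 0.00079), from 4.63 and 5.24 to 6.83 and 8.32 in WT LSK and from 5.08 and 4.90 to 7.90 and 9.01 in Parp-2-/- LSK cells. In MP cells its pools were separated in WT, at 6.11 and 5.16 before and 6.77 and 7.46 after, and overlapped in Parp-2-/- cells, at 6.50 and 4.97 before and 6.42 and 6.32 after. The adhesion gene Icam1 rose by 0.87 ± 0.09 (adjusted p = 7.1e-05), the growth factor gene Csf1 by 0.85 ± 0.10 (0.00026) and the protease gene Plau by 0.63 ± 0.10 (0.0017). Csf1 was above the array median on 0 of 8 unirradiated and 5 of 8 irradiated arrays. Neither irradiated Parp-2-/- LSK array was above it (4.79 and 4.62). The size of the rise of Csf1 is therefore not measured in Parp-2-/- LSK cells and uncertain in the mean. Plau read 3.52 to 4.67, below the median on all 16 arrays, so its levels may be background and the size of its rise is not measured.

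Among the targets that fell, the chemokine gene Ccl3 fell by 1.90 ± 0.27 (limma adjusted p = 0.001) and Ier3, an immediate early gene, by 1.29 ± 0.21 (0.0031). Zfp36, whose protein destabilises cytokine mRNAs, fell by 0.89 ± 0.16 (0.006), the activation marker gene Cd69 by 0.83 ± 0.16 (0.0087) and Ccl4, a chemokine gene, by 0.63 ± 0.12 (0.008). Ccl3 read 9.89 and 9.84 before and 8.36 and 7.96 after irradiation in WT LSK cells, and 8.85 and 7.06 before and 6.23 and 5.31 after in Parp-2-/- MP cells. Its irradiated pools lay below its unirradiated pools in all 4 settings. Ier3 overlapped in WT MP cells, at 7.07 and 6.38 before and 5.84 and 6.41 after, and was apart in the other settings. The 9 target calls in the mean response held in each alternative and each fit that left out 1 array in which the gene was tested, and Plau was removed by the filter on low values.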

How the data were processed

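Gene expression was measured on 16 arrays in 8 groups of 2 pools. The authors deposited 1 log2 intensity per transcript cluster and array. RMA, affy 2.10, limma and R 2.15 are named in the submitters' processing notes, with no roles given. The log base was read from the values, and the values were used as deposited by the authors, with no further scaling. RMA levels of different genes cannot be compared with each other.

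Of 34760 rows, 21640 carried 1 gene symbol, 1321 several and 11799 none in GEO's platform annotation. The 22961 rows with a symbol were tested. A linear model of the 8 group means over all 16 arrays was fitted in limma 3.58.1 under R 4.3.3, with eBayes, two-sided tests and Benjamini-Hochberg adjustment over the tested rows within each of 12 comparisons. These were the radiation response in 4 settings (WT and Parp-2-/-, LSK and MP) and their mean, LSK minus MP in each irradiation state, Parp-2-/- minus WT in each cell type, the genotype difference in response in each cell type, and the cell type difference in response. The threshold for a call was an adjusted p under 0.05. The fit was tested on simulated data. The number of arrays limits the precision.

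The members and the pathway and marker lists were chosen with earlier results of these data known, and their counts are descriptions, with no test of a list. All members are named. From each pathway list, up to 3 genes called in a radiation response were taken by absolute change. Zfp36, Cd69 and Tnip2 were added after their values were seen. Genes like Tnip3 were the 6 with the highest Pearson r over the group means, without predicted and small RNA genes.

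Alternatives were a fit to 8 arrays only, the pool number as a block, a further quantile normalization, an intensity trend with robust moderation, a filter on low values, all rows tested, and leaving out each array.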

Additional observations from a re-analysis of the deposited data

How the results depend on the processing

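Over 6 alternatives and 16 fits that left out 1 array, 0 results were reversed. Of the 7 called member differences, those of Nfkb2 in the mean response and of Tnip3 between irradiated LSK and MP cells stayed called throughout, and the other 5 lost the call in some fits, as given beside each. Of 96 member differences that were not called, 7 were called and 41 changed sign under at least 1 alternative or left-out array. The number of members called in WT LSK cells went from 1 to 0 with 8 arrays fitted alone and with all rows tested, and was 0 to 1 with 1 array left out. In Parp-2-/- LSK cells it was 0 to 1 with 1 array left out. For the mean response it went from 2 to 1 with all rows tested and was 1 to 2 with 1 array left out. Between unirradiated LSK and MP cells it went from 2 to 1 with 8 arrays, with quantile normalization and with all rows, and was 0 to 2 with 1 array left out (0 without pool 2 of unirradiated Parp-2-/- LSK). Between irradiated cells it went from 2 to 1 with 8 arrays and with all rows, and was 1 to 3 with 1 array left out. The cause of these losses was not tested. The calls of Tnip3 are not independent of its choice by its rise in these arrays. With 1 array left out, the lone pool of its group is assumed to vary like the others.

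The labels number the pools but do not say whether same-numbered pools came from the same mice. Deviations of same-numbered pools over all tested rows correlated between -0.173 and 0.227 over 28 pairs of groups. The 2 of the 28 over 0.1 were unirradiated Parp-2-/- LSK with unirradiated Parp-2-/- MP (0.111) and unirradiated WT MP with irradiated Parp-2-/- MP (0.227). Such correlations cannot show whether pools shared mice. With the replicate block, 0 of the 103 tested member differences changed their call, and Relb in the mean response (adjusted p = 0.052) and the single-setting responses of Cyld in WT LSK (0.05) and Nfkbid in Parp-2-/- LSK cells (0.052) lost theirs.

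The number of rows called in WT LSK cells was 413, but 35 with 8 arrays, and in Parp-2-/- LSK cells 337 but 51. In WT and Parp-2-/- MP cells it was 154 and 135, but 390 and 365 with 8 arrays and 79 and 71 with all rows tested. Quantile normalization took the LSK against MP counts from 3419 to 2133 and from 3418 to 1584. The mean of all rows per gene was not run, because each member has 1 row. With 2 arrays a group the precision is limited, and levels under the array median may be background.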
